A study of Mus musculus with 18 samples.

Results

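Thyroid hormone transport and response genes are described here as a set of 7 genes, Thrsp, Slco1c1, Dio2, Thra, Thrb, Klf9 and Hr, in the hippocampus of mice with a conditional knockout of Arid1a and of wild-type mice. They were found by gene symbol among the 55385 genes of the count tables, and all 7 were present and passed the filter on low counts at both ages. Thrsp and Slco1c1 were low in embryonic knockout tissue and the set was selected on that, that is, it was chosen by the RNA levels of cKO and WT libraries at embryonic day 16.5 (E16.5), and the difference between these genotypes at E16.5 is given for the 7 genes as a description without a test.

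The study profiled hippocampus of C57BL/6 mice with a conditional knockout of Arid1a (cKO) and of wild-type (WT) mice. The protein made from Arid1a belongs to the BAF remodelling complex, which moves nucleosomes. RNA sequencing covered 2 cKO and 2 WT libraries at postnatal day 21 (P21, 3 weeks) and 3 cKO and 3 WT libraries at E16.5. Chromatin immunoprecipitation sequencing (ChIP-seq) at 3 weeks covered H3K4me3, H3K27ac, H3K27me3 and input with 1 library per genotype each. The Cre driver, and therefore the cells that lost Arid1a, was not stated in the sources used here, nor were the number of animals per library and their sex. The RNA replicates were biological according to the series design.

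Thyroid hormone reaches the brain mostly as the prohormone thyroxine (T4), which carriers such as Slco1c1 take across the blood-brain barrier and into astrocytes. The deiodinase Dio2, known from astrocytes, turns T4 into the active hormone T3. T3 binds the nuclear receptors encoded by Thra and Thrb, which pair with retinoid X receptors on DNA and raise the transcription of targets such as Klf9 and Hr. Thrsp (Spot 14) is a T3-responsive gene of lipid synthesis in rodent liver and is known in mouse hippocampus from slowly dividing neural progenitors.

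Estimated counts summed to between 20089631 and 20332148 per P21 library and between 17662335 and 19760764 per E16.5 library. Levels are given in CPM, counts scaled to the library size after TMM adjustment within an age. Arid1a was lower in every cKO library at P21, at 99.6 ± 14.7 CPM in cKO and 210.0 ± 6.98 CPM in WT (SD, n = 2 each), a log2 change of -1.08 with a standard error (SE) of 0.126 and an edgeR adjusted p of 0.00507. At E16.5 it was 177 ± 2.50 CPM in cKO and 276 ± 12.4 CPM in WT (SD, n = 3 each), a log2 difference of -0.64 (SE 0.0578, edgeR adjusted p = 0.032), a call that was lost with any 1 library left out (adjusted p 0.058 to 0.237). At P21 edgeR called 489 genes higher and 680 lower of 17407 tested (6.72% in either direction), and at E16.5 it called 2 higher and 19 lower of 16958 tested, where DESeq2 called 412 and 731. Without adjustment, edgeR p was under 0.05 for 2036 higher and 2295 lower genes at P21. At E16.5 the same count was 1548 higher and 1951 lower, and unadjusted counts of the lists below are to be read against these. Within each genotype the E16.5 libraries varied widely in markers of choroid plexus, a tissue in the ventricle next to the hippocampus. The summed level of these markers was 2.92, 40.7 and 2558 CPM in the 3 cKO libraries and 4930, 3307 and 28.0 CPM in the 3 WT libraries. These values cross the genotypes, so results that rest on E16.5 are set beside them below.

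The sequences of the transcription start regions are shown for the genes whose start carried the chromatin differences described below, and for Thrb, which holds a receptor half-site. They are the 250 bases before the start, 5′ to 3′ on the strand of the gene, from RefSeq on GRCm38.p6. The Thrsp stretch lies at chr7:97417551-97417800 on the minus strand, that of Slco1c1 at chr6:141524104-141524353 on the plus strand, that of Dio2 at chr12:90739039-90739288 on the minus strand and that of the first Thrb start at chr14:17660710-17660959 on the plus strand. Capitals mark an exact match to AGGTCA, the half-site that thyroid hormone receptors and other nuclear receptors bind.
Thrsp: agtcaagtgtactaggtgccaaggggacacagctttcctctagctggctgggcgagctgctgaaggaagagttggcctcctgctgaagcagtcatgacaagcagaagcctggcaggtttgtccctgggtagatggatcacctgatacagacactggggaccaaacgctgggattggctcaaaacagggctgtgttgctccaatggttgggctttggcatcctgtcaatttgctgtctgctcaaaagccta
Slco1c1: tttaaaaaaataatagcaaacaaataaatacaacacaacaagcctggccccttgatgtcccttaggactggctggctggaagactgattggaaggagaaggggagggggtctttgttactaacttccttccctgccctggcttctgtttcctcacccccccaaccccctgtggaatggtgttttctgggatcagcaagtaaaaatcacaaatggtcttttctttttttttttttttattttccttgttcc
Dio2: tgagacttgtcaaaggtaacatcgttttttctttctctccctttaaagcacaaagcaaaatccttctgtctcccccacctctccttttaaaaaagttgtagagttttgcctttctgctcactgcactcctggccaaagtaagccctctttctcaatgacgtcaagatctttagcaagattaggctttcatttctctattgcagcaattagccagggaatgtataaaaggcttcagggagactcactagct
Thrb: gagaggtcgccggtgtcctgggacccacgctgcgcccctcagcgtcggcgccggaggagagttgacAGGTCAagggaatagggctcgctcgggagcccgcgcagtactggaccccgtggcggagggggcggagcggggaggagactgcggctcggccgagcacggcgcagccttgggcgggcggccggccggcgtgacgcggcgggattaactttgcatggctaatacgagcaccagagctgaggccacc

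The search took AGGTCA on both strands, and a direct repeat of 2 such half-sites with 4 bases between them, in windows of 250 bases before to 50 bases after each start. Of the 7 genes, 5 had a start in the promoter table, and Thrb had 2 starts. The half-site was found once, 184 bases before the first Thrb start, and in 16.3% of all 32851 promoters of the table. The spaced repeat was found at none of these genes and in 0.0152% (5) of all promoters. No match says only that these letters are not in this window.

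The start regions fell into 2 kinds by base composition. The first Thrb start and the Klf9 start were rich in CpG, with a ratio of observed to expected CpG of 0.946 and 0.962, which is above 90.75% and 91.79% of all promoters. Thrsp, Slco1c1, Dio2 and the second Thrb start lay low, with ratios of 0.185, 0.076, 0.202 and 0.255 against a median of 0.384 over all promoters. Slco1c1 had the lowest ratio of these starts, above 10.01% of all promoters.

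Of the transport genes, Slco1c1 encodes the T4 carrier of brain capillaries and astrocytes and lies at chr6:141524354-141570177 (GRCm38.p6). At E16.5 it stood at 20.9, 22.4 and 22.8 CPM in the 3 cKO libraries and at 72.2, 56.4 and 65.5 CPM in the 3 WT libraries. All cKO libraries were below all WT libraries, with a fitted log2 change of -1.55 (SE 0.104), or 2.94-fold lower in cKO. This low level is what chose the gene. In bulk tissue, fewer cells that express a gene and less RNA per cell cannot be told apart.

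At P21 Slco1c1 stood at 61.5 and 63.4 CPM in cKO libraries and at 81.1 and 71.5 CPM in WT libraries. The groups did not overlap, but the log2 change of -0.29 (SE 0.109) did not pass the threshold of 0.05 (edgeR adjusted p = 0.153). The P21 and E16.5 changes were not tested against each other, because the E16.5 change chose the gene.

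The carriers and transporters beyond Slco1c1 were counted as a list of 10 genes, all tested at both ages. At P21 edgeR called 0 of them higher and 0 lower, against 2.81% higher and 3.91% lower over all genes, with 2 higher and 1 lower without adjustment (p under 0.05) and 1 higher and 0 lower by DESeq2. Their median log2 change at P21 was 0.19, against 0.00863 over all genes. Slc7a8, the light chain Lat2 of an amino acid exchanger that also carries thyroid hormone, had the lowest p at P21, with 160 ± 6.49 CPM in cKO and 122 ± 6.52 CPM in WT (SD, n = 2 each) and an edgeR adjusted p of 0.0625. At E16.5 edgeR called 0 of the 10 in either direction, against 0.0118% higher and 0.112% lower over all genes, with 0 higher and 3 lower without adjustment (p under 0.05) and 0 higher and 1 lower by DESeq2. At that age the fitted change was negative for all 10, with a median of -0.64 against -0.01 over all genes. Among them was Ttr, the T4-binding protein of choroid plexus, at 0.953 to 2336 CPM in cKO and 16.3 to 4566 CPM in WT (n = 3 each). The range of Ttr within each genotype was wider than the difference between the means of 788 CPM in cKO and 2551 CPM in WT.

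Dio2, the activating deiodinase, lies at chr12:90724552-90739038. At P21 it stood at 74.0 and 85.9 CPM in cKO libraries and at 51.4 and 62.0 CPM in WT libraries. Both cKO libraries were above both WT libraries, and the log2 change of 0.49 (SE 0.131) did not pass the threshold (edgeR adjusted p = 0.0657). DESeq2 on the same counts put it past the threshold (adjusted p = 0.0264), as did the authors' deposited table (adjusted p = 0.0315), so the call depends on the tool. At E16.5 Dio2 stood at 21.6, 21.8 and 17.9 CPM in cKO libraries and at 15.9, 11.8 and 20.4 CPM in WT libraries. These groups overlapped, with a fitted log2 change of 0.35 (SE 0.207). A lncRNA gene, Gm26512, overlaps Dio2 over 939 bp, and the sources used here do not say whether the counting used strand, so reads of the overlap cannot be told apart.

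The other genes of hormone metabolism and cytosolic binding were a list of 6, with 5 tested at P21 and 4 tested at E16.5. At P21 edgeR called 1 higher and 1 lower. Sult1a1, a sulfotransferase that acts on phenols including iodothyronines, was 2.73-fold higher, at 30.1 ± 0.550 CPM in cKO and 11.03 ± 2.49 CPM in WT (SD, n = 2 each, edgeR adjusted p = 0.00507). Aldh1a1, better known as a retinaldehyde dehydrogenase than as the cytosolic hormone binder for which it was listed, was 2.37-fold lower, at 25.15 ± 4.005 CPM in cKO and 59.6 ± 13.5 CPM in WT (SD, n = 2 each, edgeR adjusted p = 0.0145). In 1 fit of all 10 libraries neither passed, with adjusted p of 0.504 and 0.33. Dio3, the deiodinase that inactivates T4 and T3, stood at 1.04 ± 0.377 CPM in cKO and 0.626 ± 0.177 CPM in WT at P21, and the difference did not pass the threshold (edgeR adjusted p = 0.389). At E16.5 none of the 4 tested passed by edgeR or DESeq2 or at an unadjusted p under 0.05.

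**Figure D1:**
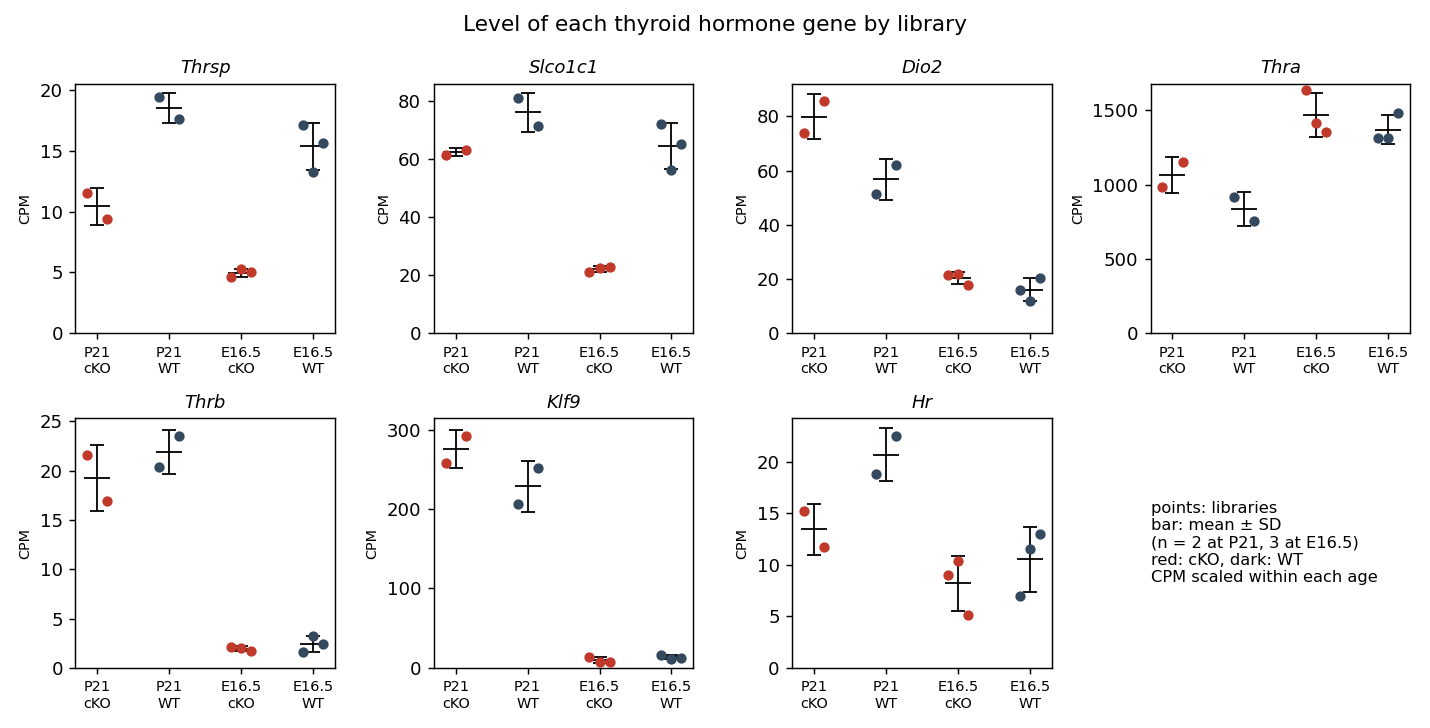
Level of each of the 7 genes in CPM (y axis, linear, from 0) by age and genotype (x axis), with points for libraries and bars for mean ± SD (n = 2 at P21, n = 3 at E16.5). Thrsp and Slco1c1 stand at 4.60 to 5.26 and 20.9 to 22.8 CPM in the E16.5 cKO libraries, below the E16.5 WT libraries, while Klf9 and Thrb are near the bottom of their panels in both genotypes at E16.5.

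Thra encodes the receptor known as the main thyroid hormone receptor of brain and lies at chr11:98740776-98769006. At P21 it stood at 981 and 1153 CPM in cKO libraries and at 914 and 753 CPM in WT libraries. The groups did not overlap, and the log2 change of 0.36 (SE 0.137) did not pass the threshold (edgeR adjusted p = 0.159). At E16.5 Thra stood at 1634, 1417 and 1357 CPM in cKO libraries and at 1311, 1314 and 1483 CPM in WT libraries, which overlapped (fitted log2 change 0.10, SE 0.101). Thra shares 1075 bp with Nr1d1, a nuclear receptor gene of the circadian clock, and reads of the shared stretch cannot be told apart without strand.

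Thrb, the second receptor gene, lies at chr14:17659225-18040097. Its levels were 21.6 and 16.9 CPM in P21 cKO libraries and 20.33 and 23.5 CPM in P21 WT libraries. The groups overlapped, and the log2 change was -0.19 (SE 0.16, edgeR adjusted p = 0.517). At E16.5 the cKO libraries stood at 2.13, 2.04 and 1.70 CPM and the WT libraries at 1.58, 3.18 and 2.46 CPM. Each of these rests on 30 to 62 estimated counts, and the groups overlapped (fitted log2 change -0.30, SE 0.312).

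Among the partners of the receptors, edgeR called 1 of the 3 retinoid X receptors higher at P21 and 0 lower. Rxra, a partner that binds DNA together with thyroid hormone receptors, stood at 48.4 ± 2.67 CPM in cKO and 33.9 ± 1.10 CPM in WT (SD, n = 2 each), a log2 difference of 0.51 (SE 0.108, edgeR adjusted p = 0.034). The call was lost without either WT library, with adjusted p of 0.139 and 0.258. Rxrb and Rxrg had log2 changes of 0.37 (SE 0.129) and 0.83 (SE 0.351) and did not pass. At E16.5 edgeR and DESeq2 called 0 of the 3, and 0 had an unadjusted p under 0.05.

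Coactivators and corepressors of the receptors showed no calls by edgeR at either age. Of 9 coactivators tested at P21, 0 higher and 3 lower had p under 0.05 before adjustment, and 0 were called by DESeq2, and Ncoa3, a p160 coactivator, had the lowest p (log2 change -0.35, SE 0.127, edgeR adjusted p = 0.143). Of 6 corepressors tested at P21, 0 had an unadjusted p under 0.05 and 0 were called by DESeq2, and Tbl1x, a subunit of the NCoR complex, had the lowest p (log2 change 0.19, SE 0.103, edgeR adjusted p = 0.297). At E16.5 the 9 coactivators had 2 higher and 1 lower without adjustment (p under 0.05), with 0 higher and 1 lower by DESeq2. The 6 corepressors had 1 higher and 1 lower without adjustment (p under 0.05) at E16.5, with 0 by DESeq2.

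Klf9 encodes a Krüppel-like transcription factor that T3 induces in rodent brain, and it lies at chr19:23141226-23168129. At P21 it stood at 258 and 292 CPM in cKO libraries and at 206 and 251.5 CPM in WT libraries. The groups were apart by a narrow margin, and the log2 change of 0.27 (SE 0.131) did not pass the threshold (edgeR adjusted p = 0.251). At E16.5 it stood at 14.2, 7.29 and 7.35 CPM in cKO libraries and at 16.3, 11.3 and 12.4 CPM in WT libraries. The first cKO library lay within the WT range and the others below it, with a fitted log2 change of -0.47 (SE 0.306).

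Of 9 other Krüppel-like factors tested at P21, edgeR called 1 higher and 1 lower. Klf15, a factor known from glucocorticoid responses, stood at 30.6 ± 3.60 CPM in cKO and 18.8 ± 1.29 CPM in WT (SD, n = 2 each), a log2 difference of 0.70 (SE 0.137, edgeR adjusted p = 0.0271). Klf10, induced by TGF-β, stood at 20.9 ± 2.84 CPM in cKO and 33.2 ± 0.822 CPM in WT (SD, n = 2 each), a log2 difference of -0.67 (SE 0.135, edgeR adjusted p = 0.0297). Both calls were lost without either WT library, with adjusted p of 0.0958 to 0.128. At E16.5 edgeR called 0 of the 9, with 0 higher and 5 lower without adjustment (p under 0.05) and 0 higher and 1 lower by DESeq2.

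Hr encodes the corepressor Hairless, known in rat brain as a direct T3 target, and lies at chr14:70554056-70573548. At P21 it stood at 15.2 and 11.7 CPM in cKO libraries and at 18.8 and 22.5 CPM in WT libraries. All cKO values were below all WT values, and the log2 change of -0.62 (SE 0.175) did not pass the threshold (edgeR adjusted p = 0.076). At E16.5 it stood at 9.03, 10.3 and 5.15 CPM in cKO libraries and at 7.00, 11.6 and 12.97 CPM in WT libraries, which overlapped (fitted log2 change -0.36, SE 0.334). At P21 Klf9 and Hr, both known T3 targets, therefore had fitted changes of opposite sign, neither past the threshold.

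Thrsp lies at chr7:97412933-97417550 on the minus strand and was the member with the lowest adjusted p at P21. Its levels were 11.5 and 9.38 CPM in P21 cKO libraries and 19.4 and 17.6 CPM in P21 WT libraries, from 187 to 388 estimated counts. Both cKO libraries lay below both WT libraries, and Thrsp fell 1.77-fold in cKO (log2 change -0.83, SE 0.162, edgeR adjusted p = 0.0274). DESeq2 also called it lower, as did the authors' deposited table (adjusted p = 0.0098). The edgeR call did not hold without the first WT library (log2 change -0.76, adjusted p = 0.112) or without the second WT library (log2 change -0.90, adjusted p = 0.083).

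At E16.5, in the values that chose the gene, Thrsp stood at 4.60, 5.26 and 5.05 CPM in cKO libraries and at 17.1, 13.3 and 15.7 CPM in WT libraries. The groups were far apart, with a fitted log2 change of -1.63 (SE 0.145), or 3.09-fold lower in cKO. Leaving out any 1 library kept the fitted change of Thrsp between -1.72 and -1.54, and that of Slco1c1 between -1.64 and -1.46. These fits reuse the libraries that chose both genes, so the ranges are a description and no support for the change.

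Taking the 7 genes at P21 as a set, edgeR called 0 higher and 1 lower, against 2.81% higher and 3.91% lower over all genes. Without adjustment, edgeR p was under 0.05 for 2 higher and 3 lower, against 2036 higher and 2295 lower of all 17407 genes tested. DESeq2 called 1 higher and 1 lower of the 7, and its share over all genes at P21 is not reported here. The groups did not overlap for 6 of the 7, 3 higher and 3 lower in cKO, against 28.2% higher and 27.9% lower over all genes, or 56.1% in either direction. The median log2 change of the 7 was -0.19. At E16.5 the groups did not overlap for 2 of the 7, both lower and both named by the rule that chose the set, against 15.3% lower over all genes, and nothing is read from that count.

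**Figure D2:**
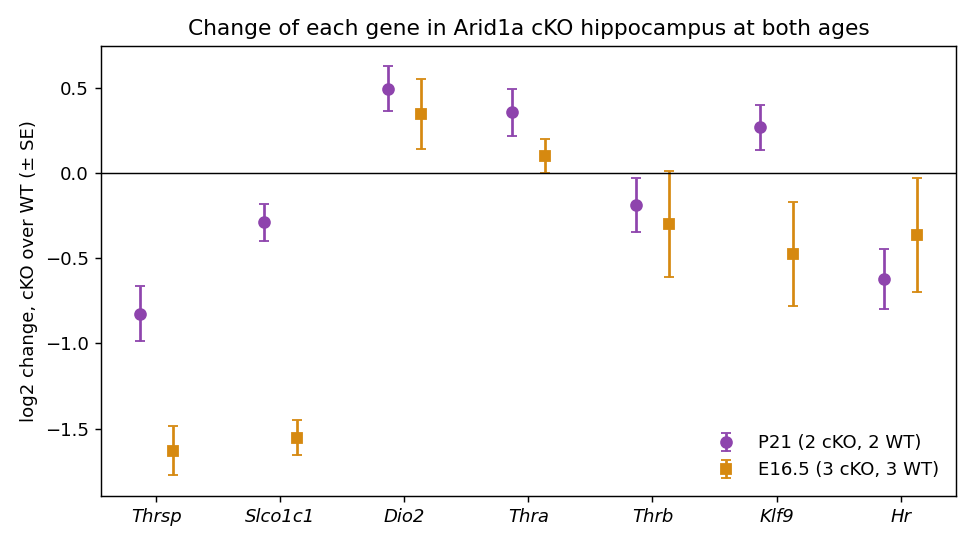
Fitted log2 change, cKO over WT (y axis), of the 7 genes (x axis) at P21 (circles, 2 cKO and 2 WT libraries) and E16.5 (squares, 3 and 3 libraries), with bars of ± 1 SE. Thrsp and Slco1c1 lie at -1.63 and -1.55 at E16.5, in the values that chose them, and at -0.83 and -0.29 at P21, while Dio2 is above 0 at both ages.

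Lipid synthesis genes were counted because Thrsp is known as a regulator of lipogenesis. Of 12 tested at P21, edgeR called 0 higher and 4 lower, with 1 higher and 8 lower without adjustment (p under 0.05) and 0 higher and 6 lower by DESeq2. Their median log2 change was -0.40, against 0.00863 over all genes. Scd2, the stearoyl-CoA desaturase of brain, stood at 675 ± 22.3 CPM in cKO and 1335 ± 5.94 CPM in WT (log2 change -0.98, SE 0.103, edgeR adjusted p = 0.00349). Its paralogue Scd1 stood at 98.6 ± 13.7 CPM in cKO and 160 ± 1.24 CPM in WT (log2 change -0.70, SE 0.122, edgeR adjusted p = 0.0193). Fabp7, the brain fatty acid-binding protein and also a marker of radial glia, stood at 4.79 ± 0.457 CPM in cKO and 10.9 ± 0.0976 CPM in WT (log2 change -1.18, SE 0.185, edgeR adjusted p = 0.0133; SD, n = 2 each). Without the second WT library neither Scd1 (adjusted p = 0.0618) nor Fabp7 (adjusted p = 0.0554) passed. The remaining gene called lower was Elovl6, a fatty acid elongase, outside the naming rule and named after its values were seen (log2 change -0.72, SE 0.128, edgeR adjusted p = 0.0199).

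The core enzymes did not pass. Fasn, fatty acid synthase, had a log2 difference of -0.23 (SE 0.124, edgeR adjusted p = 0.304), and Acly, ATP citrate lyase, one of -0.29 (SE 0.1, edgeR adjusted p = 0.127). Mid1ip1, the paralogue of Thrsp, had a log2 difference of -0.44 (SE 0.108, edgeR adjusted p = 0.0547). These 3 genes were named after their values were seen. At E16.5 edgeR called 0 of the 12, with 1 higher and 2 lower without adjustment (p under 0.05) and 1 higher and 1 lower by DESeq2.

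Genes known to respond to thyroid hormone in developing rodent brain were a list of 18, all tested at P21. EdgeR called 0 higher and 7 lower, with 0 higher and 11 lower without adjustment (p under 0.05) and 0 higher and 7 lower by DESeq2. The list's median log2 change was -0.50. Mag, a myelin adhesion protein, stood at 89.7 ± 5.53 CPM in cKO and 194 ± 4.73 CPM in WT (log2 change -1.11, SE 0.105, edgeR adjusted p = 0.0025). Mbp, myelin basic protein, stood at 2431 ± 19.4 CPM in cKO and 3591 ± 17.0 CPM in WT (SD, n = 2 each, log2 change -0.56, SE 0.103, edgeR adjusted p = 0.0228). The call of Mbp was lost without either WT library, with adjusted p of 0.151 and 0.225. Both genes are expressed by oligodendrocytes. The summed level of 11 oligodendrocyte lineage markers was 1954 and 2276 CPM in cKO libraries and 3750 and 4274 CPM in WT libraries, with 7 of the 11 called lower and 0 higher, and the part of cell number in the result was not tested.

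A further 4 genes of that list called lower were neuronal. Nrgn, a calmodulin-binding postsynaptic protein, had a log2 change of -0.51 (edgeR adjusted p = 0.0402), and Homer1, a postsynaptic scaffold protein, one of -0.59 (edgeR adjusted p = 0.0384). The neurofilament genes Nefh and Nefm had log2 changes of -0.53 (edgeR adjusted p = 0.0268) and -0.50 (edgeR adjusted p = 0.0475). These 4 were outside the naming rule and were named after their values were seen. Beside them, 10 general neuron markers gave 0 calls by edgeR, 0 higher and 2 lower without adjustment (p under 0.05) and 2 lower by DESeq2, with a summed level of 7166 and 7838 CPM in cKO libraries and 7474 and 7620 CPM in WT libraries. At E16.5 edgeR called 0 of the 17 tested response genes, with 0 higher and 1 lower both without adjustment (p under 0.05) and by DESeq2. In 1 fit of all 10 libraries Mag and Mbp no longer passed at P21, with adjusted p of 0.0761 and 0.158.

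Markers of the cell types known for these genes also differed between the libraries. Astrocytes are known for Slco1c1 and Dio2, and endothelium for Slco1c1. At E16.5 the summed level of 12 astrocyte markers was 281, 466 and 526 CPM in cKO libraries and 1022, 794 and 801 CPM in WT libraries. All cKO libraries lay below all WT libraries, and none of the 12 markers was at 0 in any library. In E16.5 WT the glutamate transporter genes Slc1a3 and Slc1a2 averaged 276 and 136 CPM, while Aqp4, Agt and S100b averaged 3.87, 1.87 and 0.591 CPM. The sum is therefore a level of these 12 markers at this age and not a count of astrocytes. Of the 10 that were tested, the fitted change was negative for all, with a median of -1.15, and edgeR called 0 higher and 1 lower, Aldoc, a glycolytic enzyme of astrocytes, at 28.6 ± 7.73 CPM in cKO and 146 ± 15.2 CPM in WT (SD, n = 3 each, edgeR adjusted p = 0.0376).

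The 12 endothelial markers at E16.5 summed to 234, 239 and 261 CPM in cKO libraries and to 701, 314 and 325 CPM in WT libraries, again without overlap and with none at 0. The first WT library stood above all others. EdgeR called 0 of the 12, with 0 higher and 10 lower without adjustment (p under 0.05) and 0 higher and 2 lower by DESeq2, and the median change was -0.86. Markers of radial glia and neural stem cells summed to 1242, 1651 and 1658 CPM in cKO libraries and to 1993, 1617 and 1847 CPM in WT libraries, which overlapped. The part of astrocyte and endothelial marker levels in the low Thrsp and Slco1c1 of E16.5 cKO was not tested.

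The summed choroid plexus markers of the 6 E16.5 libraries, given above, overlapped between the genotypes, and their part in the levels of Thrsp and Slco1c1 was not tested. Ependyma markers, another ventricular cell type, summed to 7.07, 12.3 and 47.0 CPM in cKO libraries and to 66.5, 68.2 and 21.2 CPM in WT libraries, with 1 to 3 of 6 at 0 in each library. These groups overlapped. The 11 oligodendrocyte lineage markers summed to 105.5 to 164.9 CPM in cKO libraries and to 202 to 212 CPM in WT libraries at E16.5, without overlap and with 0 to 2 at 0 in each library. At that age 8 genes of hippocampal identity summed to 869.5, 1636 and 1440 CPM in cKO and to 1779, 1544 and 1892 CPM in WT libraries. For 8 striatal genes the sums were 215, 146 and 143 CPM in cKO and 142, 154 and 133 CPM in WT libraries. The first cKO library thus had the lowest hippocampal and highest striatal sum, and also the lowest astrocyte and choroid plexus sums.

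**Figure D3:**
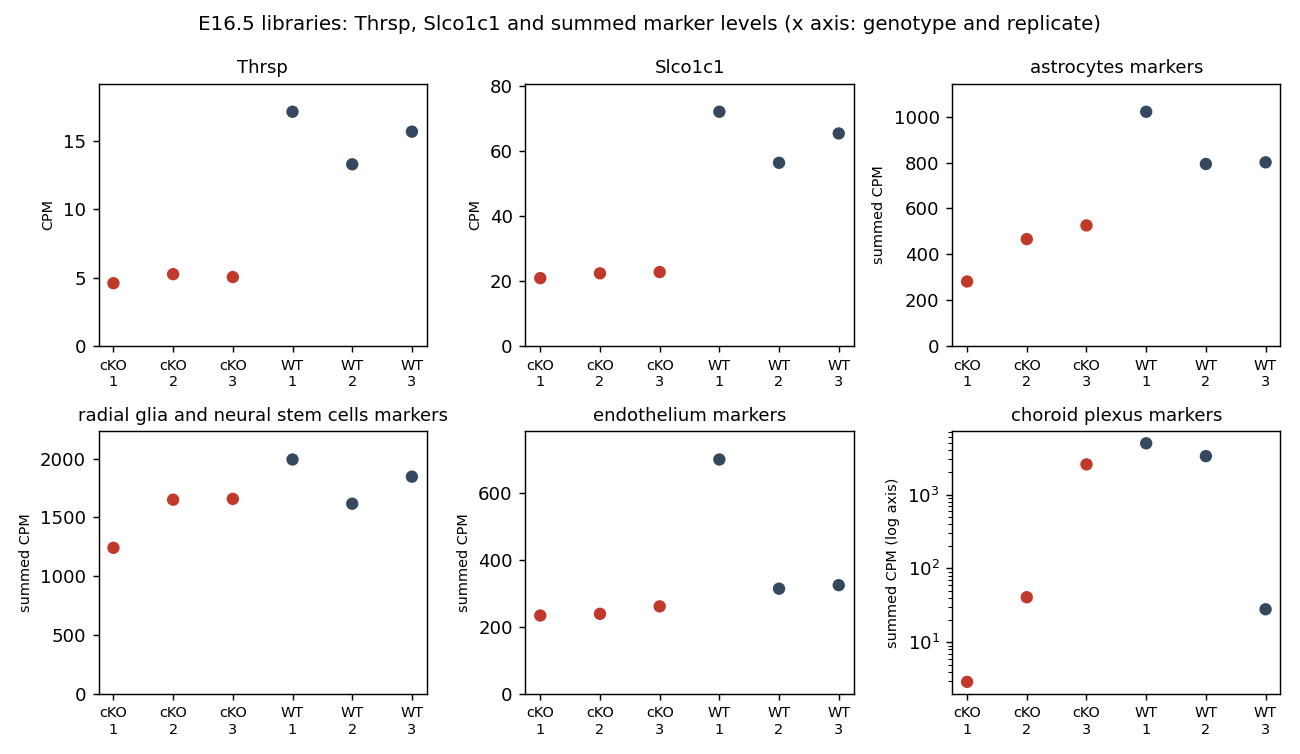
Thrsp and Slco1c1 (CPM) and the summed CPM of 4 marker lists in each E16.5 library (x axis: genotype and replicate number), on linear axes from 0 except choroid plexus, which has a log axis. Thrsp, Slco1c1, astrocyte and endothelial markers are lower in all 3 cKO libraries, radial glia markers overlap, and choroid plexus markers range from 2.92 to 2558 CPM in cKO and from 28.0 to 4930 CPM in WT.

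At P21 astrocyte markers summed to 3958 and 3904 CPM in cKO libraries and to 4527 and 4523 CPM in WT libraries, with 1 of 12 called higher and 3 lower. Radial glia and neural stem cell markers summed to 1936 and 1949 CPM in cKO libraries and to 1144 and 1172 CPM in WT libraries, with 5 of 12 called higher and 1 lower. Endothelial markers summed to 396 and 400 CPM in cKO libraries and to 352 and 304 CPM in WT libraries, with 3 of 12 called higher and 3 lower. Each of these sums leaned on 1 abundant gene. Slc1a2, a glutamate transporter, stood at 1906 ± 111 CPM in cKO and 2436 ± 24.0 CPM in WT, Glul, glutamine synthetase, at 1677 ± 29.3 CPM in cKO and 961 ± 28.1 CPM in WT, and Slc2a1, the glucose transporter of capillaries, at 180 ± 28.1 CPM in cKO and 106 ± 7.74 CPM in WT (SD, n = 2 each). The part of cell type levels in the change of Thrsp was not tested. Ependyma markers summed to 33.98 and 27.78 CPM in cKO libraries and to 16.8 and 14.1 CPM in WT libraries, with 2 of 6 called higher, Foxj1 and Tmem212, and 0 lower. Markers of neighbouring tissue also moved, since 3 of 8 striatal genes were called higher and 0 lower, while of 8 genes of hippocampal identity 1 was called higher and 4 lower. Choroid plexus markers at P21 summed to 3682 and 1053 CPM in cKO libraries and to 1440 and 1205 CPM in WT libraries, with 0 of 9 called by edgeR or DESeq2 and 0 at an unadjusted p under 0.05.

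Between the WT groups, the genes were compared at P21 against E16.5 with all 10 libraries in 1 fit and on 1 joint scale. Age coincides with the count table and with any sequencing run, so these cannot be told apart from age. All 5 genes that the rule did not use passed, 4 higher and 1 lower at P21, against 27.8% higher and 32.6% lower over all genes, or 60.4% in either direction. The median log2 change of all genes was -0.12 here and -0.02 under RLE scaling, a shift that applies to every gene compared here.

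The target Klf9 had the largest change of the 5, with 246 ± 32.9 CPM at P21 (n = 2) and 12.6 ± 2.49 CPM at E16.5 (n = 3), 19.5-fold higher at P21 (log2 change 4.28, SE 0.288, edgeR adjusted p = 4.32e-06). Thrb followed with 23.6 ± 2.23 CPM at P21 (n = 2) and 2.28 ± 0.756 CPM at E16.5 (n = 3), 10.3-fold higher (log2 change 3.37, SE 0.258, edgeR adjusted p = 5.87e-06). Dio2 stood at 61.1 ± 7.58 CPM at P21 (n = 2) and 15.2 ± 4.17 CPM at E16.5 (n = 3), 4.01-fold higher (log2 change 2.004, SE 0.207, edgeR adjusted p = 4.27e-05). The activating enzyme, 1 receptor and a target thus all stood higher in WT hippocampus at P21.

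Hr stood at 22.3 ± 2.63 CPM at P21 (n = 2) and 9.97 ± 2.98 CPM at E16.5 (n = 3), 2.23-fold higher (log2 change 1.16, SE 0.323, edgeR adjusted p = 0.0126). Thra went the other way, at 900 ± 130 CPM at P21 (n = 2) and 1300 ± 100 CPM at E16.5 (n = 3), 1.44-fold lower at P21 (log2 change -0.53, SE 0.136, edgeR adjusted p = 0.00816). Both calls were lost without the second P21 WT library, with an adjusted p of 0.0776 for Hr and 0.0877 for Thra. For Thrsp and Slco1c1 the age change is a description, with fitted log2 values of 0.45 (SE 0.15) and 0.42 (SE 0.11).

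On the joint scale the 4 groups were put in order for each gene. For Thrsp and Slco1c1 the order includes the E16.5 levels that chose them, and between ages it cannot be told apart from any sequencing run. From low to high, Thrsp averaged 4.77 ± 0.333 CPM in E16.5 cKO, 11.1 ± 1.49 CPM in P21 cKO, 14.6 ± 1.88 CPM in E16.5 WT and 20 ± 1.52 CPM in P21 WT. No neighbouring pair in that order had overlapping ranges of mean ± SD, but P21 cKO and E16.5 WT libraries came as near as 12.2 and 12.5 CPM. Slco1c1 averaged 21.2 ± 0.964 CPM in E16.5 cKO, 61.4 ± 7.65 CPM in E16.5 WT, 66.4 ± 2.16 CPM in P21 cKO and 82.3 ± 7.97 CPM in P21 WT, and P21 cKO and E16.5 WT did not differ beyond their spread. Dio2 and Klf9 had their highest group in P21 cKO, at 85.1 ± 9.84 and 293 ± 29.0 CPM. Thrb and Hr had theirs in P21 WT, and Thra in E16.5 cKO at 1412 ± 139 CPM. For Klf9, Thrb, Dio2, Hr and Thra the 2 E16.5 groups did not differ beyond their spread, and neither did the 2 P21 groups of Klf9, Thrb and Thra or the P21 cKO and E16.5 WT groups of Thra and Hr (SD, n = 2 at P21 and n = 3 at E16.5).

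Likeness over the 10 libraries was measured as the root mean square difference of log2 CPM, each gene centred on its own mean, among 12974 candidate genes. Thrsp and Slco1c1 were each other's nearest gene, at 0.216, in libraries that include those used to choose both. Next to Thrsp came Anxa6, an annexin, at 0.263 and Slc6a11, a GABA transporter known from astrocytes, at 0.278. Slc6a11 stood at 29.4 to 60.2 CPM in E16.5 cKO libraries, 118 to 137 CPM in E16.5 WT libraries, 101 and 111 CPM in P21 cKO libraries and 161 and 134 CPM in P21 WT libraries. Like Thrsp, it was lower in every cKO library than in every WT library of the same age. Slc6a11 was picked for its likeness to Thrsp in these same libraries, so the shared pattern is no separate support. Next to Slco1c1 came Plcd4, a phospholipase C, at 0.242 and Scara3, a scavenger receptor family member, at 0.247.

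For Dio2 the nearest genes were Pwwp2b at 0.216, Ephx4 at 0.26 and Rgl1 at 0.261. For Klf9, whose own spread around its mean was 2.31, they were Kcnj4, an inward rectifier potassium channel, at 0.315, Wipf3 at 0.329 and Hapln2, a link protein of the matrix at nodes, at 0.349. For Hr they were Vav3 at 0.203, Zfp933 at 0.261 and Hivep2 at 0.281. These distances are descriptions over libraries that share age and genotype.

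At 3 weeks the ChIP-seq peak lists showed which of the genes carried each mark, with 1 library per mark and genotype and therefore no test. A gene was counted when a peak lay within 1 kb of its start, or of either end for Thra and Hr. H3K4me3, the mark of active promoters, was present at 7 of 7 genes in cKO and 7 of 7 in WT, against 61.4% and 59.9% of 21883 protein-coding genes. H3K27ac, the mark of active promoters and enhancers, was present at 6 of 7 in cKO and 3 of 7 in WT, against 47.6% and 32.7%. H3K27me3, the Polycomb mark, was present at 1 of 7 in cKO and 0 of 7 in WT, against 13.3% and 3.66%. All lists were longer in cKO, with 28234 and 25145 peaks of H3K4me3, 24065 and 13006 of H3K27ac and 15659 and 4124 of H3K27me3 in cKO and in WT. A peak called in cKO and not in WT therefore has to be read against these list lengths.

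Thrsp had the narrower H3K4me3 in cKO. Its start carried 1 peak of 320 bp in cKO (chr7:97416829-97417148), with a fold enrichment over input of 6.33 and a pileup signal of 16, and 1 peak of 1033 bp in WT (chr7:97416553-97417585), with a fold enrichment of 9.85 and a pileup of 31.9, both values being the authors'. The WT peak reached 35 bases upstream of the start, into the Thrsp sequence printed above, whereas the nearer edge of the cKO peak lay 402 bases inside the gene. In the windows counted, the highest H3K4me3 pileup was also lower in cKO at Thra, Thrb, Klf9 and Hr, and higher in cKO at Slco1c1 and Dio2. The highest fold enrichment, in contrast, was higher in cKO at Thra (20.1 against 18.4 in WT), Thrb (13.9 against 13.4) and Hr (9.85 against 7.74). It was also higher in cKO at Slco1c1 and Dio2, and lower in cKO at Klf9 (18.6 against 20.6 in WT). The median fold enrichment over the whole H3K4me3 lists was 7.82 in cKO and 8.90 in WT. The share of all genes with a narrower or lower peak in cKO was not counted. Within 1 kb of the start Thrsp had no H3K27ac or H3K27me3 peak in either genotype. The RNA of Thrsp at P21 was lower in cKO as well, and RNA and mark were measured in different libraries.

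Slco1c1 had H3K4me3 peaks of similar size, 211 bp with a fold enrichment of 5.59 in cKO and 191 bp with 5.45 in WT. It also had 1 H3K27ac peak in cKO of 222 bp and a fold enrichment of 4.96 (chr6:141525000-141525221) and none in WT. Dio2 had 3 H3K4me3 peaks covering 1427 bp in cKO and 3 covering 618 bp in WT, with 2 H3K27ac peaks covering 475 bp in cKO and none in WT. Within 1 kb of its ends Hr had H3K4me3 over 1098 bp in cKO and 1126 bp in WT, and 1 H3K27ac peak of 457 bp in cKO and none in WT. Farther out, past the higher-coordinate gene end, both genotypes had H3K27ac, in WT at chr14:70577887-70578195 with a fold enrichment of 5.76. That WT peak lies within 5 kb of this end, so at the wider window Hr is not a gene with H3K27ac in cKO only. H3K27ac at the start in cKO and not in WT was thus found at 3 of the 7 genes, against 15.5% of protein-coding genes, and that of Dio2 was absent among peaks with a −log10 q of at least 5.

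Hr was the gene with H3K27me3, in 1 peak of 447 bp in cKO (chr14:70554654-70555100) with a fold enrichment of 6.61 and none in WT, against 9.67% of protein-coding genes with such a peak in cKO and none in WT. It overlapped the H3K4me3 peak and the H3K27ac peak of the same gene in cKO. Bulk tissue does not tell whether these marks lay on the same cells.

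The remaining 3 genes, Klf9, Thrb and Thra, had broad H3K4me3. Klf9 carried 5053 bp in 2 peaks in cKO and 4271 bp in 1 peak in WT, with H3K27ac over 3023 bp in cKO and 1952 bp in WT. The first Thrb start, the one with the AGGTCA match printed above, carried 2886 bp of H3K4me3 in cKO and 2059 bp in WT, with 1749 bp of H3K27ac in cKO and 620 bp in WT. Thra carried 3689 bp of H3K4me3 in cKO and 3630 bp in WT, with 3521 bp of H3K27ac in cKO and 2136 bp in WT, counted over both ends of the gene. At the lower-coordinate end alone, H3K4me3 of Thra was called over 473 and 3035 bp in cKO and over 401 and 3229 bp in WT, and H3K27ac over 899 and 1474 bp in cKO and over 673 and 1463 bp in WT. H3K27ac covered more bases in cKO at all 3 genes, while over the whole lists it covered 11558346 bp in cKO and 5172484 bp in WT.

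**Figure D4:**
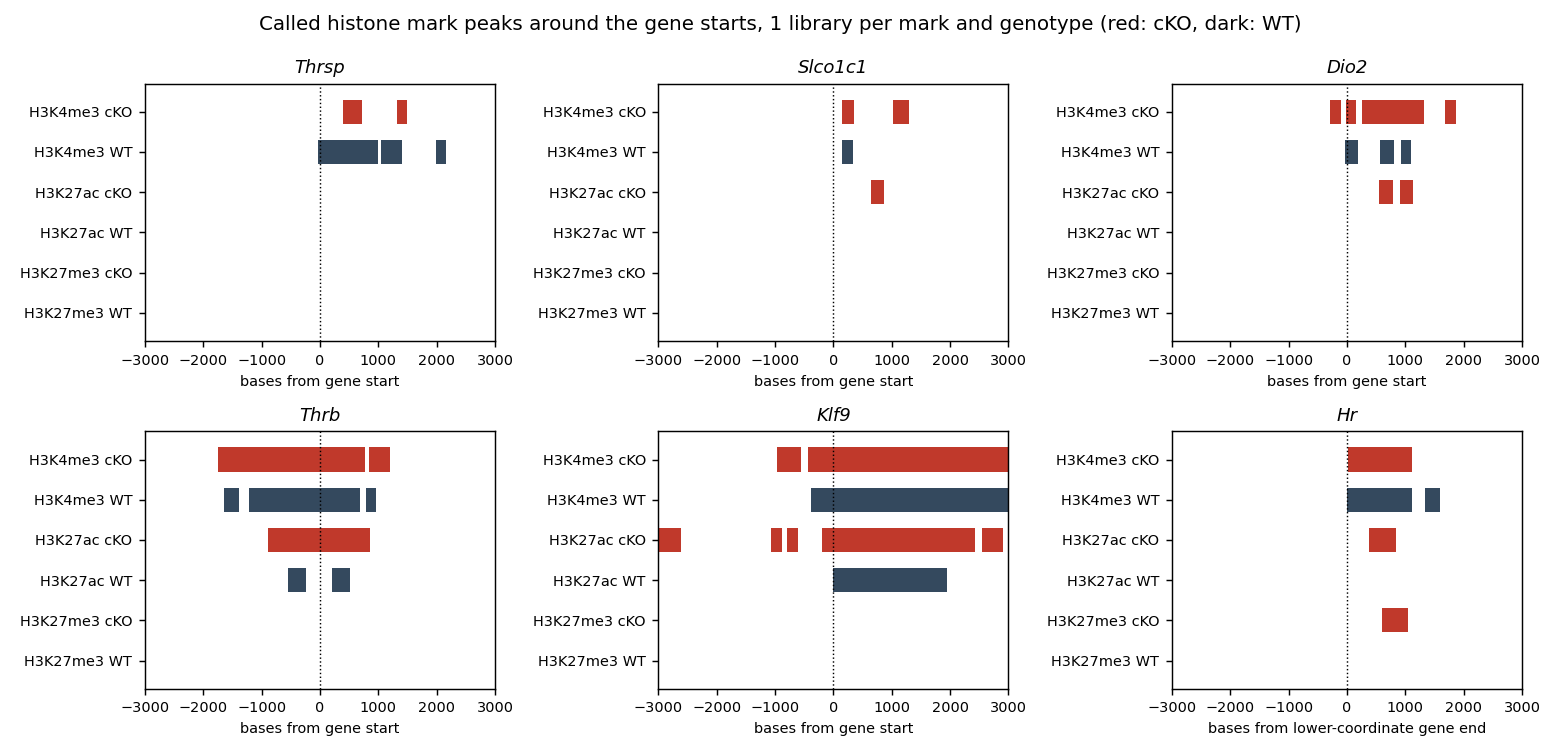
Called peaks of 3 histone marks around the gene starts (x axis: bases from the start, or from the lower-coordinate gene end for Hr) for 6 of the genes, with 1 row per mark and genotype and 1 library per row. The H3K4me3 peak at the Thrsp start spans 320 bp in cKO and 1033 bp in WT, and H3K27ac peaks near the starts of Slco1c1, Dio2 and Hr are drawn in the cKO rows and none in the WT rows.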

How the data were processed

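RNA was measured in 10 and chromatin in 8 libraries of mouse hippocampus, grouped by the sample titles. The members and gene lists were chosen with earlier results of these data known. A table of estimated counts per age was deposited, from Salmon 1.0.0 and GRCm38 by the submitters' processing notes. The sources used here do not say how transcripts were summed or whether strand was used. A further deposited table per age holds the authors' log2 fold changes, p-values and a mean-level score, made with DESeq2 1.26.0 by the same notes, with an adjusted p of 1 wherever p is missing. Peaks were called by the authors on single libraries against input, and the deposited columns, per the file headers, are the pileup signal, the fold enrichment ratio, and p and q on a −log10 scale. The file headers give MACS 2.2.7.1 with a q limit of 0.01, while the submitters' processing notes name MACS2 2.2.5 and Bowtie2 2.3.5.1. Narrow calling can split a broad domain, so covered length is given.

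Estimated counts, of which 20.8% to 22.5% per library were not whole, were rounded. Genes were tested with edgeR 4.0.16 (R 4.3.3) with filterByExpr, TMM scaling and the quasi-likelihood F test in its robust form, adjusted by Benjamini-Hochberg over all genes tested at a threshold of 0.05. Each age was fitted alone, and the WT groups were compared in 1 fit of all 10 libraries. SEs are approximate, derived from the F statistic. DESeq2 1.42.0 was an alternative. The procedure was tested on simulated counts. Counting error weighs most on low genes such as Thrb at E16.5. Gene positions and starts came from RefSeq tables of GRCm38.p6, which had starts for 5 of the 7 genes. Thra and Hr were given windows at both gene ends.

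Named were Arid1a, the 7 genes, of each list the 3 lowest adjusted p among genes that passed at P21 (or the lowest p if no gene did), every listed gene that passed at E16.5, and the 3 nearest genes for 5 members by likeness, with a prior count of 1 and a mean of at least 5 CPM at either age. Where the text names a gene outside this rule, its values had been seen first. Values of some listed genes are not reported here. Alternatives were other scalings, no filter on low counts, fits without robust estimation, the fit of all 10 libraries, a replicate block, the 5 WT libraries alone, each library left out, and other peak limits and windows.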

Additional observations from a re-analysis of the deposited data

Results flagged for a closer look

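Slc7a8, the amino acid and thyroid hormone transporter subunit Lat2, had fitted changes of opposite sign at the 2 ages. At P21 both cKO libraries lay above both WT libraries, with 156 to 164.8 CPM in cKO and 117 to 126 CPM in WT and a fitted log2 change of 0.40. At E16.5 all 3 cKO libraries lay below all 3 WT libraries, with 16.6 to 40.4 CPM in cKO and 52.6 to 61.7 CPM in WT and a fitted log2 change of -0.88. Neither change passed the threshold on its own (edgeR adjusted p = 0.0625 at P21 and 0.214 at E16.5), and the difference between the ages was not tested.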

How the results depend on the processing

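The counts of genes called at P21, 489 higher and 680 lower, became 921 and 1228 with no filter on low counts, 155 and 350 in 1 fit of all 10 libraries, and 321 higher without robust estimation. They ranged from 138 to 1244 higher and from 293 to 1627 lower with 1 library left out. The count was 1244 and 1627 without cKO replicate 1, 249 and 394 without WT replicate 1, and 138 and 293 without WT replicate 2. At E16.5, 2 higher and 19 lower became 412 and 731 by DESeq2, 24 and 105 with no filter, and 32 and 146 in the fit of all 10 libraries. With 1 library left out they ranged from 0 to 4 higher and from 0 to 13 lower. The cause was not tested. Of the 7 genes at P21, Thrsp had log2 changes between -0.98 and -0.69 with 1 library left out. Dio2 passed with DESeq2 (log2 change 0.50) and with no filter (0.48), and ranged from 0.36 to 0.63 with 1 library left out. Hr passed with no filter (-0.63) and ranged from -0.82 to -0.45, and Thra from 0.22 to 0.50. Without cKO replicate 1, Dio2 (0.60, adjusted p = 0.00854), Thra (0.47, adjusted p = 0.0264) and Hr (-0.82, adjusted p = 0.00525) passed. Between the WT ages, Thra ranged from -0.69 to -0.39 and Hr from 0.94 to 1.34 with 1 library left out. With 1 library left out, no direction of the 7 genes reversed in any comparison. Under the other settings no tested change of the 7 genes that passed the threshold reversed. For Thrsp and Slco1c1 at E16.5 those settings reuse the values that chose them.

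With the replicate number as a block, edgeR called 0 genes higher and 0 lower at E16.5, while without the block and without adjustment p was under 0.05 for 1548 higher and 1951 lower genes and DESeq2 called 412 and 731. Deviations of same-numbered libraries correlated at -0.21, -0.00454 and -0.469 at E16.5 and at 0.028 at P21. With 2 libraries per genotype, the P21 values are forced to 1 size and say nothing on pairing. No E16.5 library correlated best with its own number. The E16.5 libraries also differed widely in choroid plexus markers, so whether equal numbers mark a pairing cannot be decided from these values. Under the block Arid1a at E16.5 no longer passed (log2 change -0.64, adjusted p = 0.37), nor did Rxra and Mbp at P21. The numbers of replicates, 2 and 3 per group, limit all calls, and ChIP-seq had none.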
